A study of Mus musculus with 2 samples.

Results

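The Mir183-Mir96-Mir182 cluster is a group of 3 microRNA (miRNA) genes on mouse chromosome 6, and its reads were followed here in cultured muscle fibres. The genes were matched by Ensembl identifier to GENCODE release M21, and they are 3 of the 2202 miRNA genes in the deposited tables. They were chosen by their read counts, which were already known in these libraries, so their levels are given as a description and no test was made of them. The samples were small RNA libraries from C2C12 myotubes. C2C12 is an established mouse myoblast line, first grown from injured thigh muscle of C3H mice, whose cells fuse into myotubes as they differentiate. Both libraries came from cells differentiated for 72 h and were labelled biological replicates 1 and 2, from separate biosamples of that 1 line. No treatment, undifferentiated culture or other cell type was analysed here, so all comparisons are between genes within the group or between the 2 libraries.

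The cluster is best known from sensory organs. It is transcribed as 1 precursor RNA that is cut into hairpins, each of which yields a mature miRNA that pairs with messenger RNAs mainly through its seed, bases 2 to 8. Its members are abundant in photoreceptors, in the hair cells of the inner ear and in sensory neurons. Changes within the seed of Mir96 cause progressive hearing loss in mice and humans. In muscle, miR-182 has been described as a repressor of Foxo3, a transcription factor that drives atrophy genes.

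The mature arms from the 5′ side of each hairpin show what the members share and where they differ. They were read from RefSeq on GRCm38.p6 and are written 5′ to 3′, with the seed in capitals.
miR-182-5p: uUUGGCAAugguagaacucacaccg
miR-96-5p: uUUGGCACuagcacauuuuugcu
miR-183-5p: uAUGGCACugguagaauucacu
Each member had a seed of its own. With positions counted from 1 at the 5′ end, miR-182-5p and miR-96-5p were identical over positions 1 to 7 and differed within the seed only by A8C. miR-96-5p and miR-183-5p differed within the seed only by U2A. miR-182-5p and miR-183-5p differed within the seed at U2A and A8C, yet they were the most alike over their whole length, with 18 of 22 positions identical (81.8%). Their remaining differences were C17U and A22U. miR-96-5p matched miR-182-5p at 12 of 23 positions and miR-183-5p at 13 of 22, and its 3′ part carries a run of U that the others lack.

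Among the 1738 mature sequences in the RefSeq table, miR-1271-5p was the only mature arm outside the cluster with the seed of a member's 5′ arm, that of miR-96-5p. The seeds of the members' 3′ arms were not searched. It is printed to show the shared seed.
miR-1271-5p: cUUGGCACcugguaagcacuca
Its gene, Gm24195 on chromosome 13, had 0 reads in either library, which allows for at most 0.396 CPM in replicate 1 and at most 0.304 CPM in replicate 2, where CPM are reads per 1000000 reads assigned to miRNA genes. These limits correspond to 3 reads and, like all intervals below, cover counting error only. No mature arm outside the cluster shared the seeds of miR-182-5p or miR-183-5p.

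The hairpins explain what a read at each gene can be. They are shown with both mature arms in capitals, since the deposited counts are per hairpin and do not tell the arms apart.
Mir182 (chr6:30165918-30165992, minus strand): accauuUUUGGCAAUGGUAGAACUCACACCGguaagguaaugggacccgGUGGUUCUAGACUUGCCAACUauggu
Mir96 (chr6:30169446-30169551, minus strand): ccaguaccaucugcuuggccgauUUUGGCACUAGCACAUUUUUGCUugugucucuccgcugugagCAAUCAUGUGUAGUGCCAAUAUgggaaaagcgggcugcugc
Mir183 (chr6:30169668-30169737, minus strand): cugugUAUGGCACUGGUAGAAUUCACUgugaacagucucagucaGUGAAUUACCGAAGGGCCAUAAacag
The longest exact run that any of the 6 arms shared with another annotated miRNA hairpin, on either strand, was 11 bases. No hairpin of the cluster shared a run of 20 bases or more with another miRNA hairpin, whereas 1133 of the 2202 miRNA genes did. Multimapping reads had their own line in the tables and are in no gene's count, and matches to the rest of the genome were not searched here.

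The 3 hairpins span 3820 bases of the minus strand on mm10. Mir183 (ENSMUSG00000065619.2) comes first in the direction of transcription, Mir96 (ENSMUSG00000065586.1) follows after 116 bases, and Mir182 (ENSMUSG00000076361.1) lies a further 3453 bases downstream. In GENCODE M21 no other gene overlapped the span. RefSeq places all 3 within Mirc35hg, a long non-coding host gene on the minus strand from 30158640 to 30174125. Its exon structure was not used here. Rncr4, a long non-coding RNA known from retina for its effect on the processing of the cluster's precursor, lies on the plus strand from 30172893 to 30175126. It starts 3155 bases beyond the Mir183 hairpin and overlaps none of the 3. The nearest gene on the other side is Nrf1, which encodes a transcription factor and ends 12459 bases from Mir182. The map of the locus shows the tight pair of Mir183 and Mir96 and the distance to Mir182.

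**Figure D1:**
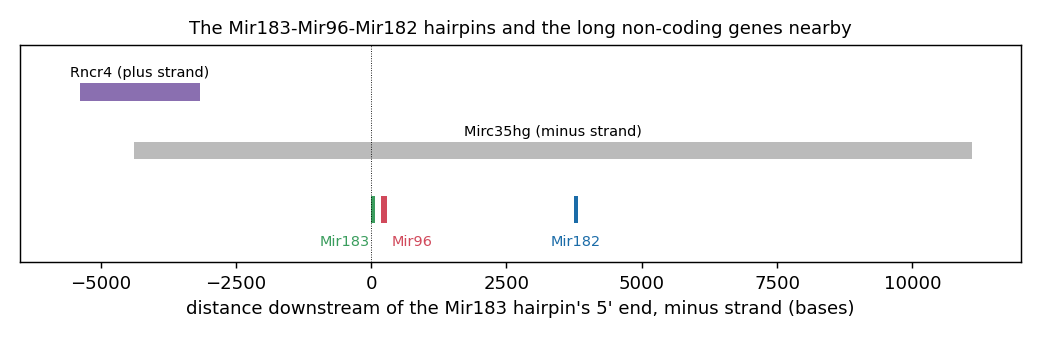
Map of the cluster. The horizontal axis is the distance in bases from the 5′ end of the Mir183 hairpin, counted along the minus strand, and bars are annotated genes (hairpins in colour, Mirc35hg in grey, Rncr4 in purple). Mir183 and Mir96 are 116 bases apart and Mir182 lies 3453 bases beyond Mir96, all within Mirc35hg.

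The depth of the libraries sets the precision of these values. Replicate 1 held 15349205 reads, 7581366 of them assigned to the strand of a miRNA gene, and replicate 2 held 18450359, 9865298 of them so assigned. Multimapping reads were 22.0% of replicate 1 and 17.9% of replicate 2. The muscle miRNA Mir206 took 34.1% of assigned reads in replicate 1 and 41.7% in replicate 2, which lowers the CPM of all other genes more in replicate 2. With 2 libraries, an SD rests on 1 difference.

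Mir182 was the leading member in both libraries. It had 24985 reads in replicate 1, or 3296 CPM (95% exact Clopper-Pearson interval 3255 to 3337), and 38989 reads in replicate 2, or 3952 CPM (3913 to 3991). The mean was 3624 ± 464 CPM (SD, n = 2), which placed Mir182 at rank 29 of 2202 miRNA genes. The replicates were close for this member, and replicate 2 was the higher.

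Mir96 was the least even member. It had 7365 reads in replicate 1, or 971 CPM (949 to 994), and 3511 reads in replicate 2, or 356 CPM (344 to 368). The mean was 664 ± 435 CPM (SD, n = 2), at rank 75, with rank 71 in replicate 1 and rank 91 in replicate 2. Mir96 encodes the member whose seed is linked to hearing loss, and it was higher in replicate 1.

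Mir183, the first hairpin of the precursor, had 4846 reads in replicate 1, or 639 CPM (621 to 657), and 4700 reads in replicate 2, or 476 CPM (463 to 490). Its mean was 558 ± 115 CPM (SD, n = 2), at rank 81. It too was higher in replicate 1. All 3 members passed 2 CPM in both libraries, as 12.4% of all miRNA genes did. Since the members were chosen for their reads, nothing is read from that count. The median over the 274 genes at 2 CPM or more in both libraries was 90.3 CPM.

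The order of the levels was resolved only for its top. Mir182 exceeded Mir96 by 3.39-fold in replicate 1 (95% interval 3.31 to 3.48) and by 11.1-fold in replicate 2 (10.7 to 11.5). It exceeded Mir183 by 5.16-fold (5.00 to 5.32) in replicate 1 and by 8.30-fold (8.05 to 8.55) in replicate 2. The CPM range of Mir182 over the libraries overlapped that of neither neighbour. Mir96 and Mir183, which are next to each other in the genome, exchanged places. Mir96 was 1.52-fold higher than Mir183 in replicate 1 (1.47 to 1.58), and Mir183 was 1.34-fold higher than Mir96 in replicate 2 (1.28 to 1.40). Each of these intervals excludes equal reads, but in opposite directions, so the order of Mir96 and Mir183 did not hold beyond the spread between the libraries.

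On the log2 scale the ratios of reads were 2.62 ± 1.21 for Mir182 over Mir96, 2.71 ± 0.49 for Mir182 over Mir183 and 0.09 ± 0.72 for Mir96 over Mir183 (SD, n = 2). A miRNA read covers most of a mature arm, and the 5′ arms are 25 bases for Mir182, 23 for Mir96 and 22 for Mir183. Divided by these lengths, the same log2 ratios were 2.50, 2.52 and 0.03. Divided by the hairpin lengths of 75, 106 and 70 bases, they were 3.12, 2.61 and -0.51. Mir182 stayed the highest member on each of these scales, and the sign for Mir96 over Mir183 changed per hairpin base.

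In CPM of all assigned reads, the total of the cluster was nearly the same in both libraries while its make-up differed. The 3 genes together gave 37196 reads in replicate 1 and 47200 in replicate 2, which is 4906 and 4784 CPM. Their sum was 0.485% ± 0.00861 of assigned reads (SD, n = 2). Mir182 contributed 67.2% of the cluster's reads in replicate 1 (66.7% to 67.6%) and 82.6% in replicate 2 (82.3% to 82.9%). Mir96 contributed 19.8% in replicate 1 (19.4% to 20.2%) and 7.44% in replicate 2 (7.20% to 7.68%). The share of Mir183 was 13.0% (12.7% to 13.4%) and 9.96% (9.69% to 10.2%). Unlike the summed CPM, these shares do not depend on the total used for CPM. The plot of shares shows the exchange between Mir182 and Mir96.

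**Figure D2:**
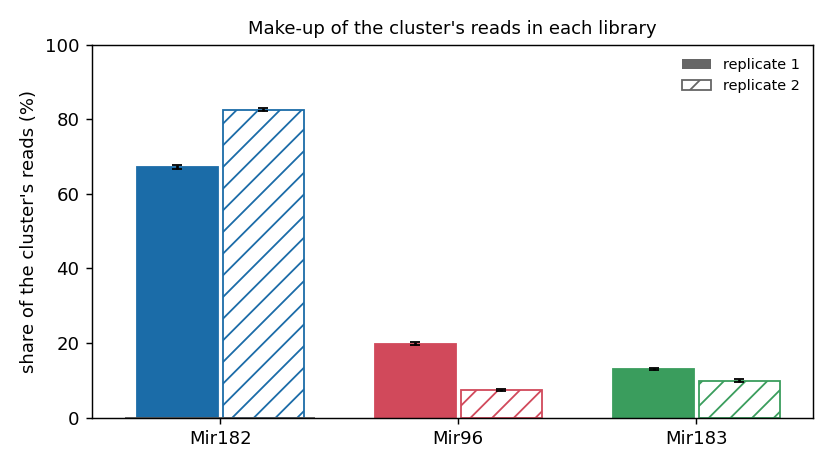
Share of the cluster's reads taken by each member. Bars give the percent of the summed reads of the 3 genes in each library, with filled bars for replicate 1, hatched bars for replicate 2 and error lines for the 95% exact Clopper-Pearson interval; Mir182 is at 67.2% and 82.6% in replicates 1 and 2, and Mir96 at 19.8% and 7.44%.

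The next comparison set the replicates against each other, gene by gene. With 1 library on each side no p-value is given, and a gene was called when its CPM differed 2-fold or more. In replicate 1 Mir96 was at 2.73 times its level in replicate 2 (95% counting interval 2.62 to 2.84), and it was the only member called. Mir183 was 1.34-fold higher in replicate 1 (1.29 to 1.40). Mir182 was 1.20-fold higher in replicate 2 (1.18 to 1.22). The members of 1 precursor thus lay on both sides of equality between these libraries.

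Many other genes also differed 2-fold or more. Of 415 miRNA genes with 10 reads or more in total, 121 (29.2%) were 2-fold or more apart, 75 of them (18.1% of the 415) with the higher level in replicate 1 and 46 (11.1%) in replicate 2. The split depended on the scaling. It was 72 against 50 with TMM sizes from edgeR and 68 against 51 with DESeq2 size factors. With Mir206 left out of the totals the split was 57 against 61. Leaving out Mir206 shifts the log2 difference of all genes by -0.18. Against the median of the 413 genes with reads in both libraries, which does not depend on the scaling, the log2 difference of replicate 1 minus replicate 2 was 1.40 for Mir96, 0.38 for Mir183 and -0.31 for Mir182. Of the 415 genes, 38 had a higher ratio of replicate 1 to replicate 2 than Mir96, 149 had a higher ratio than Mir183 and 270 had a higher ratio than Mir182. At least as far apart as Mir96, in either direction, were 59 of the other 414 genes (14.3%). The quartiles of the log2 difference of CPM over the 413 genes were -0.47 and 0.73, and of the members only Mir96 lay outside them.

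**Figure D3:**
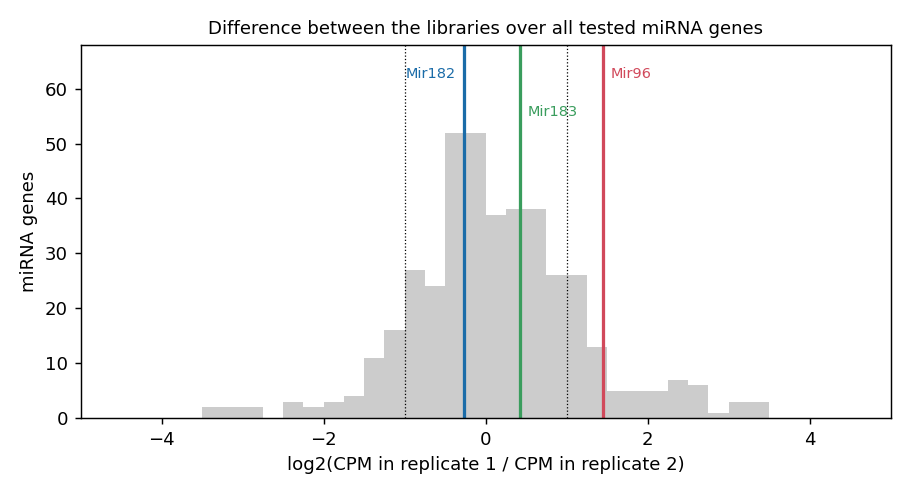
Difference between the libraries. The histogram counts the 413 tested miRNA genes with reads in both libraries by log2 of CPM in replicate 1 over CPM in replicate 2, coloured lines mark the members and dotted lines mark 2-fold; Mir96 lies beyond 2-fold, and Mir183 and Mir182 lie inside it on opposite sides of 0.

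Other clusters in the same libraries give a scale for the spread among the members. Clusters were taken as miRNA genes of 1 strand with gaps of at most 10 kb and 3 or more genes at 2 CPM in both libraries, and 10 were found. The ratio of the highest to the lowest member by mean CPM was 6.50-fold here (log2 2.70), for Mir182 over Mir183. By this mean, the Mir500 to Mir532 cluster alone had a smaller ratio, at 6.35-fold. The place was not the same in each library: the ratio was 5.16-fold in replicate 1, the smallest of 10 clusters, and 11.1-fold in replicate 2, at place 5 from the smallest. The Mir25-Mir93-Mir106b cluster, a relative of the proliferation-linked Mir17 cluster, had a ratio of 8.24-fold. The largest ratio was 1092-fold, in the Mir450b to Mir322 cluster. Larger clusters have more chance of a wide ratio, and 7 of the other 9 clusters hold genes whose hairpin shares a run of 20 bases or more with another, which the members do not. Without such genes 5 clusters remained, and the cluster was at place 2 from the smallest by mean CPM, place 1 in replicate 1 and place 3 in replicate 2. The Mir450b to Mir322 cluster then had a ratio of 98.5-fold, and the largest was 364-fold, in the Mir17 cluster.

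The genes of other clusters also differed among themselves in their change between the libraries. This comparison was chosen after the values of the members had been seen. The range of the log2 difference between replicates was 1.71 over the 3 members, from Mir182 to Mir96. In order from the smallest, the cluster stood at place 7 of 10. Among the 6 clusters with 3 such genes its range was the largest, next to 1.70 over Mirlet7d, Mirlet7f-1 and Mirlet7a-1, 1.62 over Mir23a, Mir27a and Mir24-2, and 1.17 over Mir99b, Mirlet7e and Mir125a. It was 0.57 over Mir25, Mir93 and Mir106b and 0.41 over Mir23b, Mir27b and Mir24-1. The 6 genes of the Mir17 cluster had a range of 4.87. Without genes that share a run of 20 bases or more, its range was 3.43 over 4 genes, and the members stood at place 4 of 5 clusters. Of the 6 clusters of 3, only the members and the Mir25, Mir93 and Mir106b cluster hold no such gene. Counts of such genes can be too low where reads were multimapping. The leading gene's share of reads also differed between the libraries in 3 other short clusters. Mir93 took 50.9% of its cluster's reads in replicate 1 and 56.7% in replicate 2. Mir221, paired with Mir222, took 88.7% and 81.2%, and Mir143, paired with Mir145a, took 96.1% and 90.9%. As log2 odds of that share, replicate 2 minus replicate 1, the difference was 1.21 for Mir182, 0.34 for Mir93, -0.85 for Mir221 and -1.30 for Mir143. The Mir200a, Mir200b and Mir429 cluster, with 0 and 2 reads in replicates 1 and 2, and the Mir200c and Mir141 cluster, with 33 and 19, were too low for such a share. No test of these differences was possible with 2 libraries.

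**Figure D4:**
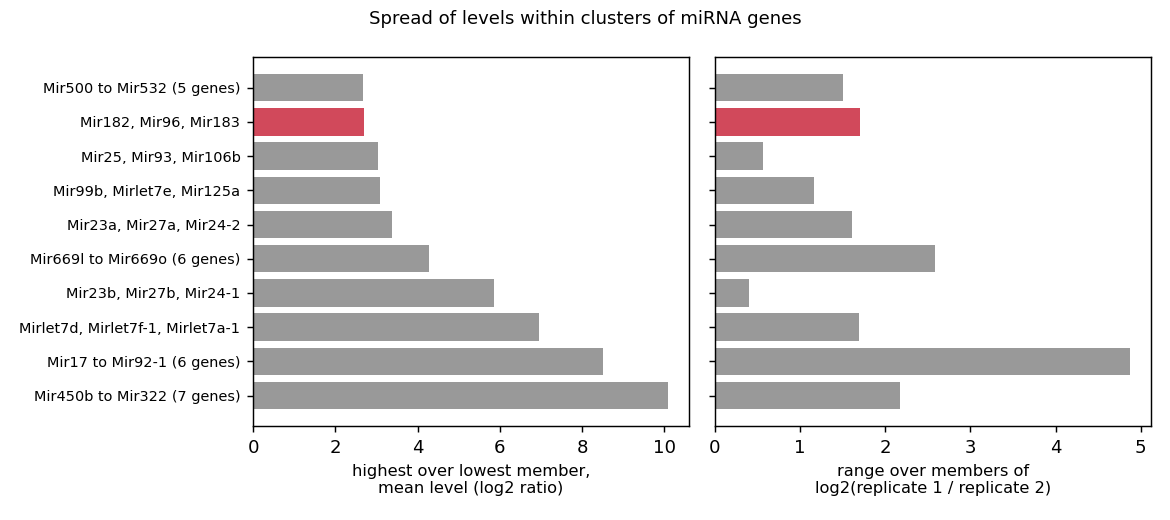
Spread within the 10 clusters of miRNA genes. Bars on the left give the log2 ratio of the highest to the lowest member by mean CPM and bars on the right the range over members of the log2 ratio of replicate 1 to replicate 2; the Mir182, Mir96 and Mir183 cluster (red) is at 2.70 and 1.71.

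The labelled cell type was checked against muscle miRNAs, and the cluster against miRNAs of the tissues it is known for. The muscle list was led by Mir206, a skeletal muscle miRNA, at 378817 ± 53707 CPM (SD, n = 2). Mir133b, from the same transcript, was at 12089 ± 2151 CPM and Mir499, from a myosin intron, at 471 ± 131 CPM. The Mir1a and Mir133a genes of the list were low. By mean, Mir1a-1 was at 2.94 CPM, Mir1a-2 at 3.02 CPM, Mir133a-1 at 2.01 CPM and Mir133a-2 at 1.03 CPM. Of these, only Mir1a-1 reached 2 CPM in both libraries. Of the 10 genes on the muscle list 7 (70%) reached 2 CPM in both libraries, against 12.4% of all miRNA genes. Mir206 exceeded Mir182 by 103-fold in replicate 1 and by 105-fold in replicate 2. Of the muscle list, Mir206 and Mir133b had higher means than Mir182, and Mir499 and Mir208b were below every member by mean. Within replicate 1, Mir499 at 564 CPM and Mir208b at 260 CPM were below all members. Within replicate 2, Mir208b at 495 CPM exceeded Mir183 and Mir96, and Mir499 at 378 CPM exceeded Mir96, so these levels were not separated from Mir96 and Mir183. In 6 of the 10 muscle genes, Mir133b and the Mir1a and Mir133a genes among them, the hairpin shares a run with another hairpin. The counts of these genes can be too low where reads were multimapping.

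Other miRNAs of sensory organs and neurons were far below the cluster. The members were chosen with their reads known and rank 29, 75 and 81 of 2202, so most miRNA genes lie below them. The distance to a list is therefore a description only. Of 13 such genes 4 (30.8%) reached 2 CPM in both libraries, against 12.4% of all miRNA genes, and 5 had no read in either, as was so for 1494 of all 2202 genes. The list had a sum of 182 CPM (replicate 1) against 139 CPM (replicate 2), so the cluster exceeded the whole list by 26.9-fold and 34.5-fold. The highest were Mir132 at 112 ± 20.0 CPM and Mir7-1 at 25.1 ± 6.34 CPM. Mir212, made from the same precursor as Mir132, was at 19.4 ± 5.21 CPM (SD, n = 2). Mir204 and Mir211, which are light-regulated in the retina together with the cluster, had 1 read each in replicate 1 and 10 and 3 reads in replicate 2. Neither hairpin shares a run of 20 bases with another. The neuronal Mir124a genes had 0 reads in either library and the Mir9 genes had 1 read in all. Each of their hairpins shares a run of 20 bases or more with another hairpin, so their reads can be multimapping. On this list 8 of 13 genes share such a run.

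Epithelial miRNAs were also far below the cluster, where most miRNA genes lie. Of 12 such genes 3 (25%) reached 2 CPM in both libraries, against 12.4% of all miRNA genes, and 2 had no read in either. The list had a sum of 125 CPM (replicate 1) against 127 CPM (replicate 2). It was led by Mir192, a miRNA of gut and kidney epithelium, at 102 ± 12.6 CPM, Mir194-2 at 12.5 ± 9.70 CPM and Mir205 at 3.85 ± 0.713 CPM (SD, n = 2). Of the Mir200 genes on this list, Mir200a and Mir429 had 0 reads in either library, and Mir200b had 0 reads in replicate 1 and 2 in replicate 2. Mir200c had 25 reads in replicate 1 and 4 in replicate 2, and Mir141 had 8 and 15. No gene of the sensory or epithelial lists reached the lowest member, Mir183, by mean CPM. Of all 2202 miRNA genes 80 had a higher mean than Mir183, so nothing is read from that absence. Whether a few cells or all cells of the culture carried the cluster cannot be told apart in bulk RNA, nor can fewer cells and less RNA per cell.

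**Figure D5:**
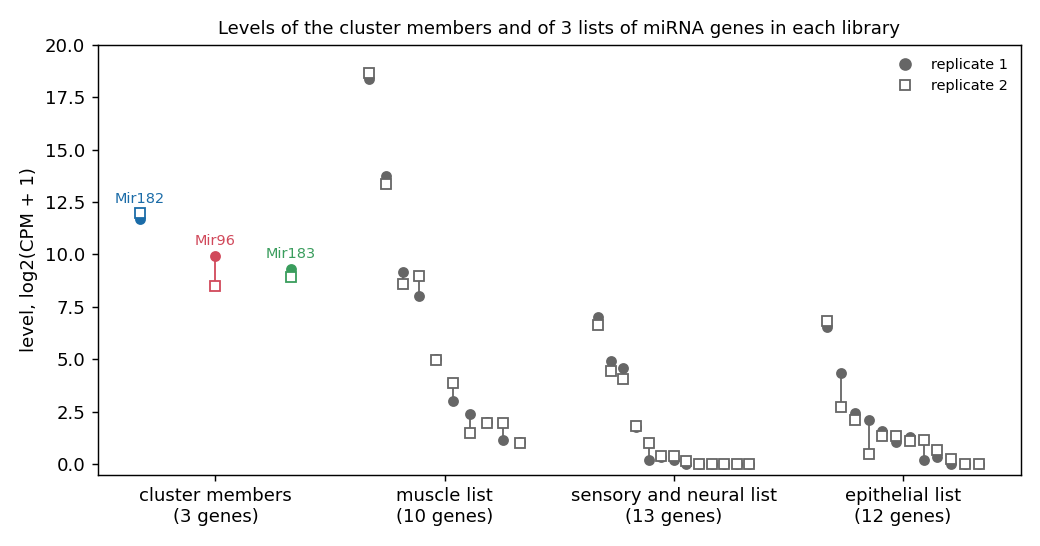
Levels of the members and of 3 lists. The vertical axis is log2(CPM + 1), filled circles are replicate 1 and open squares replicate 2, and each vertical line is 1 gene; the members sit above all genes of the sensory and epithelial lists and below Mir206 and Mir133b of the muscle list.

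The genes most like each member in level were found by the distance in log2(CPM + 1) over the 2 libraries, which reflects level and the difference between the libraries only. Nearest to Mir182 were Mir191 (distance 0.38), Mir188 (0.52) and Mir30e (0.53). Mir191 was at 2969 CPM in replicate 1 and 3110 CPM in replicate 2. Nearest to Mir96 were Mir196a-2 (0.30), Mir361 (0.41) and Mir708 (0.43). Mir196a-2, a miRNA of the Hox clusters, had 811 CPM in replicate 1 and 320.0 CPM in replicate 2, higher in replicate 1 like Mir96. Nearest to Mir183 were Mir708 (0.32), Mir361 (0.33) and Mir181a-1 (0.37). Mir361 and Mir708 were near both Mir96 and Mir183, and no gene of this kind was shared with Mir182.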

How the data were processed

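Small RNA from 2 C2C12 myotube libraries was analysed. The deposited files hold raw read counts per miRNA gene, made by the authors on mm10 with annotation M21, per the notes deposited beside the tables. The aligner is not given in the sources used here, nor are the counter and trimming. Of 3 count columns (strand ignored, own strand, opposite strand, told apart by the values), the own-strand column was used. The 4 lines that name no gene were dropped. All 2202 identifiers matched GENCODE M21, and its GRCm38 coordinates are those of mm10. RefSeq sequences matched all 3 members.

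CPM used own-strand reads of all miRNA genes as the total. Intervals are 95% exact Clopper-Pearson intervals, or the odds of such an interval for a ratio of reads. They cover counting error only, since no molecular identifiers are mentioned. The libraries were compared over genes with 10 reads or more, with edgeR 4.0.16 TMM sizes and DESeq2 1.42.0 size factors in R 4.3.3 as alternatives. The 2-fold call was also run on simulated counts with planted changes and counting error only. That simulation held no variation between cultures, so it does not show how the call behaves between biological replicates. Python 3.11.15, numpy 2.4.6, scipy 1.17.1 and pandas 2.3.3 were used.

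The members, lists and alternatives were chosen with earlier results of these data known. Named genes were the members, the 3 nearest to each in level, the 3 highest of each list, genes with a member's seed, the most abundant gene and the nearest annotated genes. Other genes, such as Mir204, Mir211, Mir124a, Mir9, Mir1a, Mir133a, Mir208b, Mir200 genes and those of other clusters, were named after their values were seen.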

Additional observations from a re-analysis of the deposited data

Results flagged for a closer look

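The opposite-strand counts, which no comparison used, held 4 reads at Mir183 in replicate 2. No test was made of so few reads. Replicate 1 had 0 such reads there. No gene is annotated on the plus strand at this hairpin in GENCODE M21. At Mir182 the opposite strand held 3 reads in replicate 1 and 1 in replicate 2, and at Mir96 it held 0 in both.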

How the results depend on the processing

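Mir182 stayed the highest member, and each member kept the direction of its difference between the libraries, under all alternatives tried. With strand ignored, the mean of Mir182 was 4153 CPM. With all reads as the denominator the means were 1870 CPM for Mir182, 335 CPM for Mir96 and 285 CPM for Mir183, and with Mir206 left out of the total they were 5888, 1042 and 893 CPM. The fold of replicate 1 over replicate 2 for Mir182 was 0.816 with TMM, 0.801 with DESeq2 size factors, 0.738 without Mir206 and 0.785 with strand ignored. Without Mir206 it was 2.42 for Mir96 and 1.19 for Mir183, and with strand ignored 2.57 and 1.26, so Mir96 stayed past 2-fold. The number of genes 2-fold or more apart was 182 of 555 with 1 read or more in each library and 60 of 240 with 100 reads or more, where 48 were higher in replicate 1. With strand ignored it was 104, split into 53 and 51. Either library alone gave 3296 to 3952 CPM for Mir182, 356 to 971 CPM for Mir96 and 476 to 639 CPM for Mir183, and turned the sign of Mir96 over Mir183 (log2 -0.42 to 0.60). The cluster's place by spread, 2 of 10 from the smallest, was 1 to 5 in single libraries. No paired analysis was possible because there is 1 group. Depth does not limit the members' own values, each resting on 3511 reads or more per library. The number of libraries does.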
